A study of Mus musculus with 56 samples.

Results

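Transforming growth factor beta (TGF-beta), bone morphogenetic protein (BMP) and Smad signalling was represented by 39 clones of 31 genes on the MUSV29K nylon microarray, of 7625 clones with a gene name. The clones were taken by the start of their gene name (Smad, Tgfb, Bmp, Acvr, Inhb, Gdf with a digit, Ltbp, Fst, Smurf, Ski and Tgif, with Id1 to Id4), and 8 of the genes were present as 2 clones. The name rule also took in genes that do not signal in this pathway, among them Skiv2l, an RNA helicase, and Bmp2k, a kinase named after its induction by a BMP. Each gene with 2 clones is described clone by clone, clone 1 being the one with the higher signal.

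The study followed acute lung injury after oleic acid (OA), a fatty acid that damages the lung capillaries when it reaches them by the vein. Female C57Bl/6J mice of 7 weeks received 20 µl of OA (1.2 µl per g of body weight) or of physiological serum, under Xylazine and Ketamine anaesthesia, through the tail vein, and total RNA of a whole lung was hybridised. Lungs were taken 1, 1.5, 3, 4, 18 or 24 hours after the injection, from 4, 6, 7, 4, 3 and 3 OA mice (27 in all), and from 2, 1, 2, 0, 2 and 1 serum mice (8 in all). The hours were grouped as early (1 and 1.5 hours, 10 mice), intermediate (3 and 4 hours, 11 mice) and late (18 and 24 hours, 6 mice). No untreated mice were analysed here, and a whole lung mixes all its cell types, so that fewer cells of a type and less RNA per cell cannot be told apart.

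In this pathway, ligands of the TGF-beta, activin and BMP families bind pairs of receptor kinases at the cell surface. The receptors phosphorylate Smads, which join Smad4 and act on genes in the nucleus. The inhibitory Smads (Smad6, Smad7), the Smurf ubiquitin ligases and the nuclear corepressors Skil, Tgif and Tgif2 restrain the signal. In the lung TGF-beta is known for its part in endothelial and epithelial permeability, in the control of inflammation and in fibrosis, and BMP signalling for airway and vessel development.

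The 250 bases before the RefSeq start site (GRCm38.p6, 5′ to 3′) are shown for Tgif2 and Acvr2b, the members that differed between stages and have an entry in the promoter table, and for Id2 and Id3, which are well known as BMP and Smad target genes. Of the 31 genes, 21 had an entry. Capitals mark CAGAC, the Smad box, on either strand (GTCTG when it lies on the other strand), and GGCGCC, a GC palindrome close to known BMP response elements. Both were searched on both strands, and they do not overlap in these stretches.
Tgif2 (chr2:156839757-156840006, plus strand): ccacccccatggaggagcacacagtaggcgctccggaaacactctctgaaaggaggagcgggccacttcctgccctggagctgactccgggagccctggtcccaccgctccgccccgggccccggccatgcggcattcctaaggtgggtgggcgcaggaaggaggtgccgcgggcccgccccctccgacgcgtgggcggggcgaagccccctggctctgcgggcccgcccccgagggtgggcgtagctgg
Acvr2b (chr9:119401928-119402177, plus strand): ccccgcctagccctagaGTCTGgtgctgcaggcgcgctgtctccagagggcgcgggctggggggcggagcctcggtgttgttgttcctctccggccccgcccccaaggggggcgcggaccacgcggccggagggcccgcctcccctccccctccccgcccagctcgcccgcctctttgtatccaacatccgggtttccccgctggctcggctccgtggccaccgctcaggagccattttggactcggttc
Id2 (chr12:25096093-25096342, minus strand): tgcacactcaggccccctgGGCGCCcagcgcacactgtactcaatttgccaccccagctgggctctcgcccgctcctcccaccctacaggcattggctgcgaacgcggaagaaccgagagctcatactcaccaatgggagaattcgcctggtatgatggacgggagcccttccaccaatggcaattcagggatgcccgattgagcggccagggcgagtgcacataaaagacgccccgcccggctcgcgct
Id3 (chr4:136143572-136143821, plus strand): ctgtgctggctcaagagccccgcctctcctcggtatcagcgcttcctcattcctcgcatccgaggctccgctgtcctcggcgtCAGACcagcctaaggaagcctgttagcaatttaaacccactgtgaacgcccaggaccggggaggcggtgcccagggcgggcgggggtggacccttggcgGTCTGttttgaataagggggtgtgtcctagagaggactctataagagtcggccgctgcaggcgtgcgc
CAGAC was found once in Acvr2b (233 bases before the start, on the reverse strand), at 2 places in Id3 (167 bases before the start, and 68 bases before it on the reverse strand) and not in Tgif2 or Id2. GGCGCC was found only in Id2 among the 4, 231 bases before the start. Over all 32851 promoters of this length, 42.2% hold CAGAC and 9.59% hold GGCGCC, so that CAGAC is common by its letters alone. Such matches describe the sequence and are no evidence of binding.

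Of the 39 clones, 9 had a mean signal over the OA mice above the 95th percentile of the 512 empty spots (23.1%), which lay at 9.12 on the log2 scale, against 32.4% of all clones. These 9 were Bmp1 clone 1, Id2, Id3, Smad4 clone 1, Smad5, both clones of Tgfbi, Skil and Tgfb1. For 16 member clones, not 1 of the 50 OA microarrays was above the empty spots of the same microarray, among them Smad1, Smad3, Smad6, Smad7, Tgfb2, Tgfb3, Acvr2b and both clones of Tgif. Values of such clones are given as signals near the empty spots and not as levels of the transcript. The median OA microarray intensity was 8.33 on the log2 scale (range 6.76 to 9.36), and that of the serum microarrays was 7.62 (5.73 to 8.39). The SD between the 2 microarrays of a mouse, over 23 mice, had a median of 0.25 over the members. Their SD between mice of a time point had a median of 0.24 (0.22 over all clones). The first is for single microarrays and the second for means per mouse, mostly of 2 microarrays, so they are not like measures.

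The first question was whether the pathway changed with time after OA. None of the 39 members passed limma's moderated F test over the 6 time points (adjusted p at 5%), whereas 153 of all 7625 clones (2.01%) did. At an unadjusted p under 0.05 there were 7 members, Skil, Tgif2, Tgfbr3 clone 2, Acvr2b, Smurf2, Gdf9 and Smad7, and 15.8% of all clones. The time point means of a member spanned a median of 0.30 on the log2 scale, against 0.33 over all clones. Among the 9 members above the empty spots this span ran from 0.19 for Tgfbi clone 1 to 0.52 for Tgfbi clone 2.

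**Figure D1:**
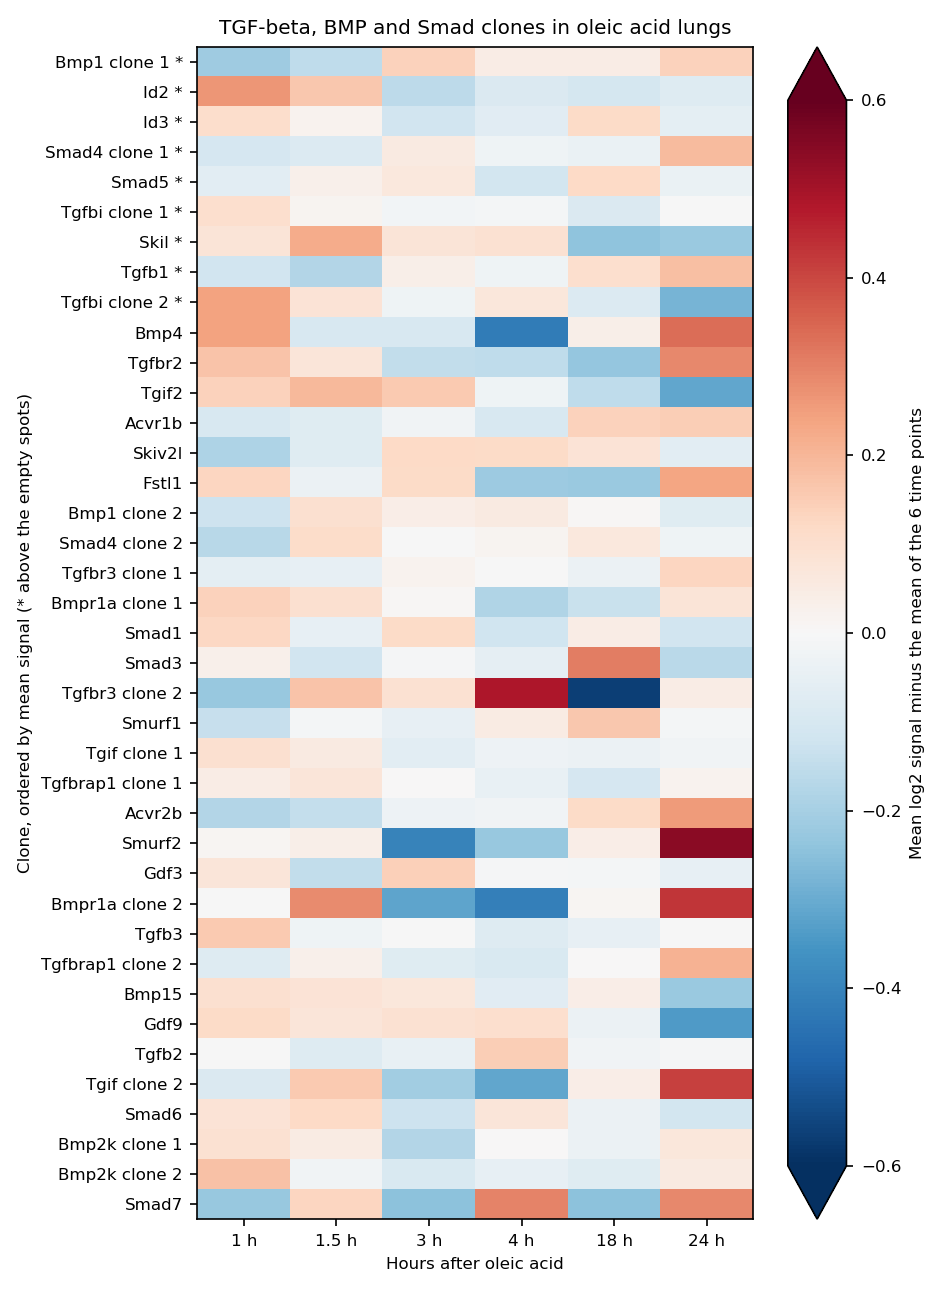
Mean log2 signal of each of the 39 clones at each time point after OA (columns), minus the clone's mean over the 6 time points, with red for higher and blue for lower values and a star for the 9 clones above the empty spots. The wider colour swings lie among clones without a star, and Skil and Tgfbi clone 2 are starred clones whose 18 and 24 hour cells are the lowest of their rows.

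Skil, also called SnoN, a corepressor that holds Smad complexes inactive on their target genes, had the lowest adjusted p of the members over time (0.0597), just outside the threshold. From 1 to 24 hours its mean signals were 9.45, 9.59, 9.45, 9.46, 9.13 and 9.15 in the order of the 6 time points. The 6 late mice had signals of 9.09, 9.10 and 9.20 at 18 hours and of 9.05, 9.14 and 9.25 at 24 hours. The 10 early mice lay between 9.24 and 9.74 (median 9.52) and the 11 intermediate mice between 9.26 and 9.64 (median 9.49). Thus the late mice were all below the intermediate mice, and 1 early mouse reached into the late range.

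Skil fell late. The late mean was lower than the early mean by 0.40 on the log2 scale (95% interval -0.56 to -0.24, SE 0.08, limma adjusted p = 0.0120), and late minus intermediate was -0.31 (adjusted p = 0.0206). Intermediate minus early was -0.08 (95% interval -0.22 to 0.05). Late minus early passed the test in 214 of all clones (2.81%) and in 3 members, late minus intermediate in 237 clones (3.11%) and in 1 member, and intermediate minus early in 201 clones (2.64%) and in no member. The late minus early call of Skil held when each of the 27 mice was left out in turn (adjusted p of 0.00403 to 0.0490). It was lost with the serum mean subtracted (-0.17, adjusted p = 0.130). The last hour of the intermediate stage had no serum mice, so not every time point had its own serum mean. In all, 3 members were called between any pair of stages, Skil, Tgif2 and Acvr2b, against 515 of all clones (6.75%).

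The number after the letter L in the sample titles, whose meaning is not given in the sources used here, was treated as a lot of animals. The 6 late mice are all of lot 1, the 10 early mice are 6 of lot 2 and 4 of lot 3, and the intermediate mice are 3, 3 and 5 of lots 1, 2 and 3. For Skil, the 3 intermediate mice of lot 1 had signals between 9.27 and 9.35 (mean 9.30), between the late mice (mean 9.14) and the intermediate mice of lot 2 (9.46) and lot 3 (9.54). Within lot 1, late minus intermediate was -0.16 for Skil (SE 0.10, adjusted p = 0.748), and within lots 2 and 3 intermediate minus early was -0.04 (adjusted p = 0.874). With lot as a block, late minus early of Skil was -0.20 (adjusted p = 1.00), and not 1 of the 7625 clones passed. Late and early share no lot, so stage and lot cannot be told apart in that contrast, and the same holds for every late minus early difference below.

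Tgif2, a homeodomain corepressor that binds Smads, also fell late. Its signals were 8.61, 8.78 and 8.99 at 18 hours and 8.48, 8.67 and 8.74 at 24 hours, against 8.88 to 9.57 in the early mice (median 9.09) and 8.76 to 9.40 in the intermediate mice (median 9.03). Only the 18 hour mouse at 8.99 lay within the early range. Late minus early was -0.40 (95% interval -0.61 to -0.20, SE 0.10, adjusted p = 0.0357), and late minus intermediate -0.32 (adjusted p = 0.0789). Tgif2 was near the empty spots, above those of the same microarray on 8 of 18 early, 6 of 21 intermediate and 3 of 11 late microarrays. Within lot 1, late minus intermediate was -0.24 (SE 0.14, adjusted p = 0.700). The call was lost when any 1 of 9 mice was left out (P11L1, P8L1, P7L1, P6L1, P12L1, P8L2, P2L2, P3L2, P6L2), with a highest adjusted p of 0.0973 without P8L1.

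Acvr2b, a type II receptor for activins and related ligands, rose late. Its signals were 8.04, 8.12 and 8.13 at 18 hours and 8.18, 8.22 and 8.31 at 24 hours, against 7.45 to 8.12 in the early mice and 7.76 to 8.10 in the intermediate mice. Late minus early was 0.34 (95% interval 0.16 to 0.52, SE 0.09, adjusted p = 0.0398), and late minus intermediate 0.21 (adjusted p = 0.208). No microarray had Acvr2b above its own empty spots, in any stage, so this difference was measured on a signal within the range of spots without DNA, and no fold is given. Within lot 1, late minus intermediate was 0.25 (adjusted p = 0.593). The call was lost without any 1 of 12 mice (P11L1, P8L1, P7L1, P10L1, P6L1, P12L1, P2L2, P7L2, P3L2, P6L2, P1L3, P5L3), with a highest adjusted p of 0.104 without P8L1, and also with the serum mean subtracted (0.26, adjusted p = 0.126).

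**Figure D2:**
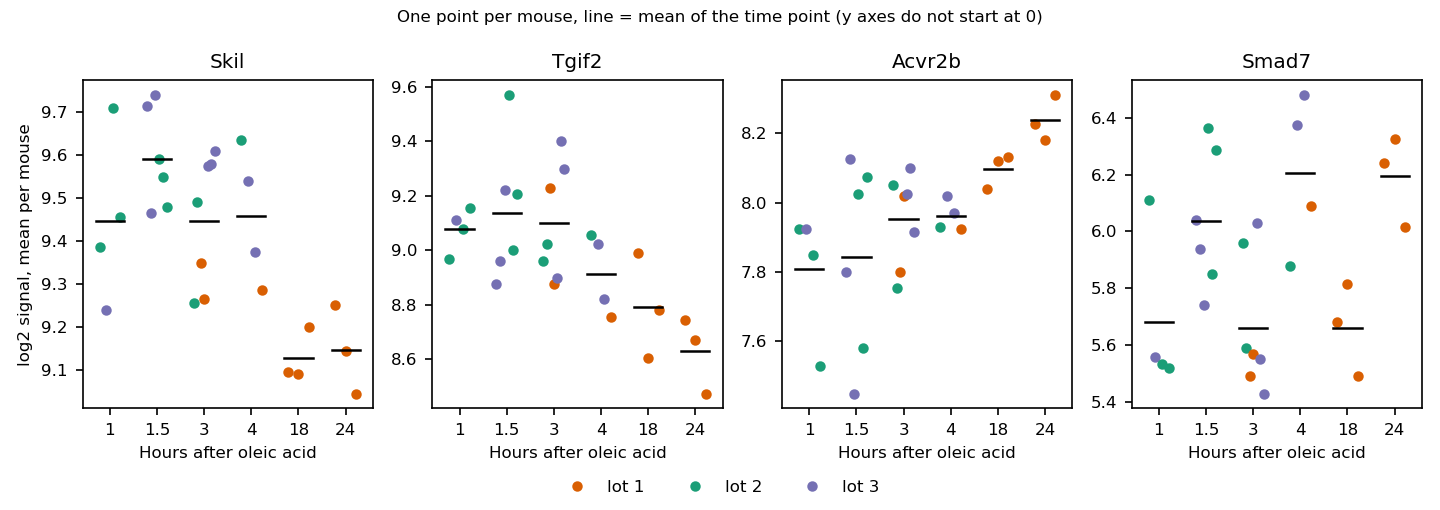
log2 signal of Skil, Tgif2, Acvr2b and Smad7 in each OA mouse (points, coloured by lot) by hours after OA, with the mean of each time point as a line and y axes that do not start at 0. The late points of Skil lie between 9.05 and 9.25 and all belong to lot 1, whose intermediate points lie at 9.27 to 9.35.

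The inhibitory Smads did not pass the test over time. Smad7, which blocks the receptors and recruits Smurfs to them, had an adjusted p of 0.0672. Its signals at 1 hour were 5.52, 5.54, 5.56 and 6.11, and its mean moved from 5.68 at 1 hour to 6.04, 5.66, 6.21, 5.66 and 6.19 at 1.5, 3, 4, 18 and 24 hours. These means alternate within each stage, so that late minus early was only 0.03 (95% interval -0.31 to 0.37). Smad7 was called over time when the microarray with conflicting labels, its whole mouse P7L3, or mouse P2L2 or P11L2 was left out, and Skil when P2L3, P4L3 or P3L2 was. Smad6, which acts mainly on the BMP branch, had means between 6.31 and 6.55. On all 50 OA microarrays both lay under the empty-spot percentile.

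Among the Smads that carry the signal, Smad4 clone 1 and Smad5 were above the empty spots. Smad4, the shared partner of the others, had signals of 9.50 to 9.94 early (median 9.71), 9.44 to 10.26 intermediate (median 9.85) and 9.57 to 10.01 late (median 9.98). Smad5, a BMP branch Smad, had 9.57 to 10.04, 9.61 to 10.01 and 9.64 to 10.02, with medians of 9.78, 9.79 and 9.80. The stages of Smad5 overlapped almost entirely, whereas 4 of the 6 late mice lay above all early mice for Smad4 clone 1 and within its intermediate range. Late minus early was 0.17 for Smad4 clone 1 (95% interval -0.05 to 0.38) and 0.05 for Smad5 (-0.12 to 0.21). These intervals are from the fit without lot, so they do not bound a change with stage alone. With lot as a block, the difference was -0.07 for Smad4 clone 1 and 0.15 for Smad5. With the serum mean subtracted, that of Smad5 was -0.42 (limma adjusted p = 0.0219). Smad1, Smad3 and Smad4 clone 2 lay under the empty-spot percentile, and their late minus early was -0.05, 0.13 and 0.02.

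Id2 and Id3 encode inhibitors of basic helix-loop-helix factors and are induced by BMP through Smads in many cells. Id2 ranged from 10.30 to 11.08 in early mice (median 10.50), from 9.57 to 10.60 in intermediate mice (median 10.24) and from 10.02 to 10.52 in late mice (median 10.24). Its late minus early was -0.30 (95% interval -0.56 to -0.04, adjusted p = 0.175) and did not pass. Id3 ranged from 9.98 to 10.56, 9.73 to 10.29 and 9.97 to 10.38, and its late minus early was -0.03 (-0.21 to 0.14). The target Tgfbi, a secreted matrix protein named after its induction by TGF-beta, had late minus early of -0.10 (-0.33 to 0.14) in clone 1 and -0.33 (-0.62 to -0.03, adjusted p = 0.188) in clone 2.

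Of the ligands, Tgfb1 alone was above the empty spots. Its signals were 8.83 to 9.68 early (median 9.26), 9.03 to 9.93 intermediate (median 9.46) and 9.24 to 9.83 late (median 9.59), with wide overlap. Late minus early was 0.29 (95% interval 0.02 to 0.57, adjusted p = 0.198). Bmp4, Tgfb2, Tgfb3, Bmp15, Gdf3 and Gdf9 lay under the percentile, and Gdf9, an ovarian ligand, had the lowest adjusted p among them over time (0.230). Bmp1, which despite its name is a protease that trims procollagens, had signals of 11.69 to 12.56 early, 11.84 to 12.86 intermediate and 12.18 to 12.78 late in clone 1, with late minus early of 0.27 (-0.03 to 0.57, adjusted p = 0.276).

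**Figure D3:**
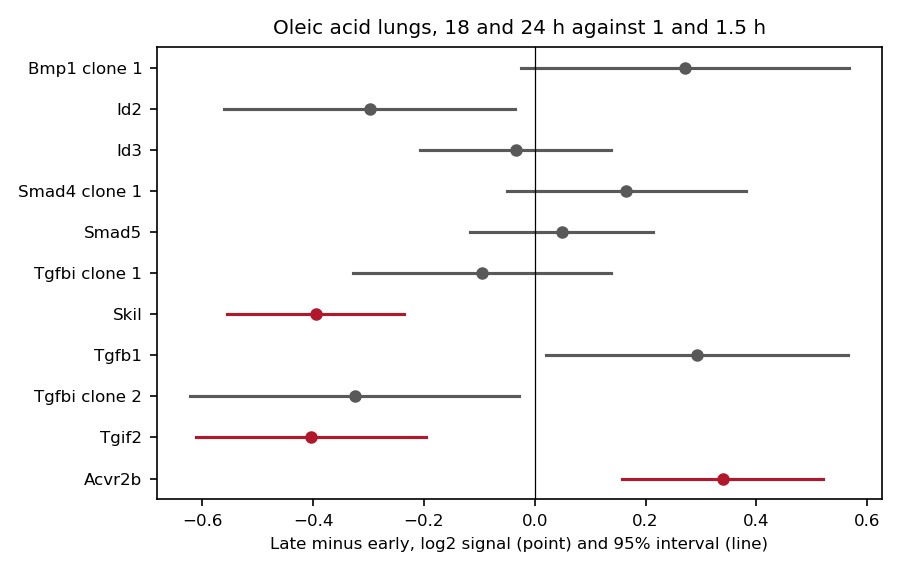
Late minus early difference in log2 signal (points) with its 95% interval (lines) for the 9 clones above the empty spots and the clones called between stages, with the called ones in red. Skil and Tgif2 lie near -0.40, Acvr2b lies at 0.34, and the intervals of Id3, Smad4 clone 1, Smad5, Tgfbi clone 1 and Bmp1 clone 1 hold 0.

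The other genes of the pathway on the array were counted from lists chosen with earlier results of these data known. Of 103 clones of 72 further genes (receptor and latency partners, extracellular antagonists, nuclear partners, turnover factors and non-Smad branches), 2 were called over the 6 time points and 9 between any pair of stages, beside 2.01% and 6.75% of all clones. By list, the calls over time were 0 of 23 reception clones, 0 of 4 antagonists, 0 of 24 nuclear partners, 1 of 27 turnover factors and 1 of 25 non-Smad clones. The call among turnover factors was Tob2, an antiproliferative factor that can damp BMP signalling, whose signal was under the percentile. The non-Smad call was Map2k3 clone 2, also under the percentile (adjusted p = 0.0494). These 2 clones are named after their values were seen.

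Of 29 clones of 21 known TGF-beta or BMP target genes, 3 were called over time (Cdkn1a, Ctgf and, under the percentile and named after its value was seen, Pdgfb, adjusted p = 0.0473) and 7 between any pair of stages, beside 2.01% and 6.75% of all clones. This list was chosen with earlier results of these data known, so the counts are no test of the target genes as a set. Cdkn1a, the cell cycle inhibitor p21, had means of 8.92, 9.22, 10.22, 10.61, 8.88 and 8.24 over the 6 time points (adjusted p = 0.000460). It rose by 1.27 from early to intermediate (adjusted p = 0.000892) and fell by 1.81 from intermediate to late (adjusted p = 6.97e-05). Within lots 2 and 3 the rise was 1.09 (adjusted p = 0.00600) and within lot 1 the late value fell by 1.89 (adjusted p = 0.00176). Ctgf, a matricellular protein induced by TGF-beta, had means of 10.34, 10.57, 10.62, 10.82, 9.63 and 10.00 (adjusted p = 0.0151), and late minus intermediate was -0.88 (adjusted p = 0.00116) overall and -0.65 (adjusted p = 0.243) within lot 1. Both are also induced by other signals, and no part of TGF-beta in their change was tested.

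The remaining named clones of the lists were not called over time, at adjusted p of 0.0672 for Timp3 clone 2, an inhibitor of metalloproteases, 0.0858 for Map2k3 clone 1, a kinase upstream of p38, 0.0941 for Tsc22d1 clone 2, a TGF-beta induced factor, 0.0944 for Cul1 clone 1, a ubiquitin ligase scaffold, 0.108 for Acta2, smooth muscle actin, and 0.156 for Klf2, an endothelial factor. Map2k3 clone 1 rose from early to intermediate by 0.46 (adjusted p = 0.00433) and by 0.35 within lots 2 and 3 (adjusted p = 0.0251). Cul1 clone 1 fell late, with late minus early of -0.45 (adjusted p = 0.0357), but late and early share no lot, and within lot 1 late minus intermediate was -0.51 (adjusted p = 0.162). Timp3 clone 2 fell from intermediate to late, by 0.52 (adjusted p = 0.0423), and within lot 1 the difference was -0.57 (adjusted p = 0.289).

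The cell type markers were read beside these results. The mean signal of 10 neutrophil marker clones had a median of 9.32 in early, 9.28 in intermediate and 9.04 in late mice, that of 6 liver and plasma protein clones 8.41, 8.56 and 9.29, and that of 9 macrophage clones 8.33, 8.14 and 8.11. Lung markers were present, with 3 of 4 epithelial, 9 of 12 endothelial and 12 of 13 fibroblast or smooth muscle clones above the empty spots, and their medians were 11.12, 11.12 and 11.19, 9.49, 9.52 and 9.66, and 10.85, 10.81 and 10.85. The medians of 18 T cell, 16 B cell, 16 red cell and 2 muscle clones were 7.29, 7.20 and 7.16, then 8.22, 7.85 and 8.03, then 12.89, 12.89 and 12.85, then 10.34, 10.36 and 10.15. Few clones of some lists were above the empty spots: 4 of 10 neutrophil, 2 of 9 macrophage, 1 of 18 T cell, 2 of 16 B cell and 1 of 6 liver and plasma clones. The late medians of neutrophil, macrophage, T cell, B cell, red cell and muscle markers were lower than the early ones. Those of liver and plasma, epithelial and endothelial markers were higher, in the mice in which Skil and Tgif2 fell. The late neutrophil values (8.98 to 9.26) lay within the early range (8.89 to 9.99). The part of these cell types in that fall was not tested.

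The second question was whether members differed between OA and serum lungs of the same hours. The contrast was the mean of the OA minus serum differences at 1, 1.5, 3, 18 and 24 hours, on intensities quantile normalised over all 60 microarrays. The titles of the serum samples give no lot, so lot did not enter this contrast. A difference of lot and an effect of OA cannot be told apart in it. It passed the test in 61.6% of all clones (4700 of 7625), 34.3% higher and 27.3% lower in OA, and in 25 of the 39 members, 10 higher and 15 lower. The share of members called is therefore near the share of all clones, and serum microarrays were dimmer as a group. The median difference was -0.07 over the members and 0.05 over all clones, and the median of its absolute size was 0.34 and 0.33. When each microarray was centred on its median instead, 43.6% of the called clones were higher in OA, against 55.7%. Then 27 members were called (4979 of all clones), 9 higher and 18 lower.

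The cell type markers were also read between the treatments. The mean signal of the macrophage clones was 7.80 to 8.35 in OA mice (median 8.05) and 7.55 to 7.80 in serum mice (median 7.69), that of the endothelial clones 9.04 to 9.72 (median 9.43) and 9.41 to 9.80 (median 9.65), and that of the neutrophil clones 8.79 to 9.89 (median 9.11) and 9.04 to 9.41 (median 9.22). Of the macrophage clones 4 were called higher and 4 lower in OA, of the neutrophil clones 3 and 3, and of the endothelial clones 4 and 6. Only 2 of the 9 macrophage clones were above the empty spots. The medians in OA and serum mice were 8.50 and 7.76 for liver and plasma clones and 10.25 and 9.49 for muscle. They were 11.04 and 11.11 for epithelial, 10.75 and 10.89 for fibroblast or smooth muscle, 7.09 and 7.05 for T cell and 12.82 and 12.80 for red cell clones. Their part in the results below was not tested.

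Only 12 members were above the empty spots on some microarrays of both treatments, and folds are given for these alone. Of them 1 was higher in OA, 7 were lower and 4 were not called, whereas over all 2632 clones measured in this way 57.9% were called, 23.3% higher and 34.6% lower. Of the 11 members above the empty spots on some OA microarrays and on no serum microarray, the bound on the fold was under 1, so no fold is given. Another 16 were above them on no microarray, and 11 of these were among the 25 called.

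Fstl1, a secreted glycoprotein of the follistatin family that binds BMP4 and other ligands, was lower in OA lungs. Its intensity in the serum mice, ordered by time, was 10.08 and 10.30 in those of 1 hour, 10.44 in the mouse of 1.5 hours, 9.85 and 10.32 in those of 3 hours, 10.20 and 10.00 in those of 18 hours and 10.42 in that of 24 hours, whereas the 27 OA mice lay between 7.48 and 9.07 (median 8.63). The groups did not overlap. OA minus serum was -1.61 on the log2 scale (SE 0.15, 95% interval -1.92 to -1.29, limma adjusted p = 6.02e-10), a 3.04-fold difference, and it lay between -1.87 and -1.38 at each of the 5 time points. Fstl1 was above the empty spots on 8 of 9 serum and 14 of 50 OA microarrays. Within the OA time course its means stayed between 8.47 and 8.93.

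Bmp1 clone 1 was higher in OA lungs. Its 8 serum values, in the same order of mice, were 10.95, 10.66, 10.96, 11.12, 11.05, 10.34, 10.60 and 10.62, and the OA mice lay between 11.60 and 12.80 (median 12.40), again without overlap. OA minus serum was 1.56 (SE 0.13, 95% interval 1.30 to 1.81, adjusted p = 2.38e-11), a 2.94-fold difference. The second clone of the same gene did not differ by the test, at -0.07 (-0.29 to 0.15, adjusted p = 0.564), but it was above the empty spots on only 3 of 50 OA and 0 of 9 serum microarrays and is no check on the first. The gene behind clone 1 was not checked by sequence here.

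Groups without overlap were seen in 4 members (Fstl1, Bmp1 clone 1, Skil and Tgif clone 1), and in 12.7% of all clones. Skil lay between 8.93 and 9.64 in OA mice (median 9.33) and between 8.63 and 8.90 in serum mice (median 8.72, adjusted p = 2.23e-07), but no serum microarray had it above the empty spots. OA minus serum was 0.56, 0.57, 0.60, 0.39 and 0.41 at 1, 1.5, 3, 18 and 24 hours, and the test of a difference between these values did not pass (adjusted p of 1.00). Skil did not keep its direction when the spot diameter was calculated for each spot (-0.07, adjusted p = 0.866).

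The other members that passed and were measured in both treatments were lower in OA. Acvr1b, a type I activin receptor, lay between 8.25 and 9.08 in OA mice (median 8.70) and between 8.86 and 9.72 in serum mice (median 9.15), with OA minus serum of -0.53 (SE 0.08, adjusted p = 2.64e-06). Tgif2 had OA minus serum of -0.49 (SE 0.08, adjusted p = 9.35e-06) and Smad4 clone 1 of -0.47 (SE 0.10, adjusted p = 0.000169). Bmp4, a ligand made by lung mesenchyme and endothelium, differed by -0.52 (SE 0.17, adjusted p = 0.00942), Tgfbi clone 1 by -0.35 (SE 0.10, adjusted p = 0.00379) and Tgfbr2, the type II TGF-beta receptor, by -0.32 (SE 0.12, adjusted p = 0.0247). All of these groups overlapped. Acvr1b was above the empty spots on only 10 of 50 OA and 2 of 9 serum microarrays. These counts were 17 and 5 for Tgif2, 20 and 5 for Bmp4, and 23 and 5 for Tgfbr2. They were 46 and 8 for Smad4 clone 1 and 44 and 8 for Tgfbi clone 1. The mean signals of Acvr1b, Tgif2, Bmp4 and Tgfbr2 over the OA mice lay under the empty-spot percentile. The call of Tgfbr2 was lost without the serum mouse at 1.5 hours (adjusted p = 0.0587), without 1 serum mouse at 3 hours (0.0559) and without 1 at 18 hours (0.0678). With the fitted spot signal in place of the image signal, Tgif2 (-0.21, adjusted p = 0.127) and Tgfbr2 (-0.27, adjusted p = 0.106) were not called. With the spot diameter calculated, Bmp4 and Tgif2 were called and Acvr1b, Smad4 clone 1, Tgfbi clone 1 and Tgfbr2 were not (adjusted p of 0.117, 0.202, 0.163 and 0.661). Bmp4 lost its call with only the OA mice in the brightness range of the serum mice (-0.40, adjusted p = 0.181). That fit had fewer OA mice and none at 24 hours, so loss of mice and brightness cannot be told apart in it. Bmp4 (-0.40, adjusted p = 0.0923) and Tgfbi clone 1 (-0.26, adjusted p = 0.0717) were also not called with only the 3 time points that had 2 serum mice.

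Tgfb1, Id2, Id3 and Smad5 were measured in both treatments and not called. OA minus serum was -0.10 for Tgfb1 (95% interval -0.34 to 0.14), -0.09 for Id2 (-0.32 to 0.13), -0.15 for Id3 (-0.31 to 0.01) and 0.05 for Smad5 (-0.08 to 0.19). These depend on the scaling, since with each microarray centred on its median Id2 (-0.38, adjusted p = 0.00371), Id3 (-0.42, adjusted p = 8.48e-05) and Tgfb1 (-0.29, adjusted p = 0.0461) were called lower in OA.

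**Figure D4:**
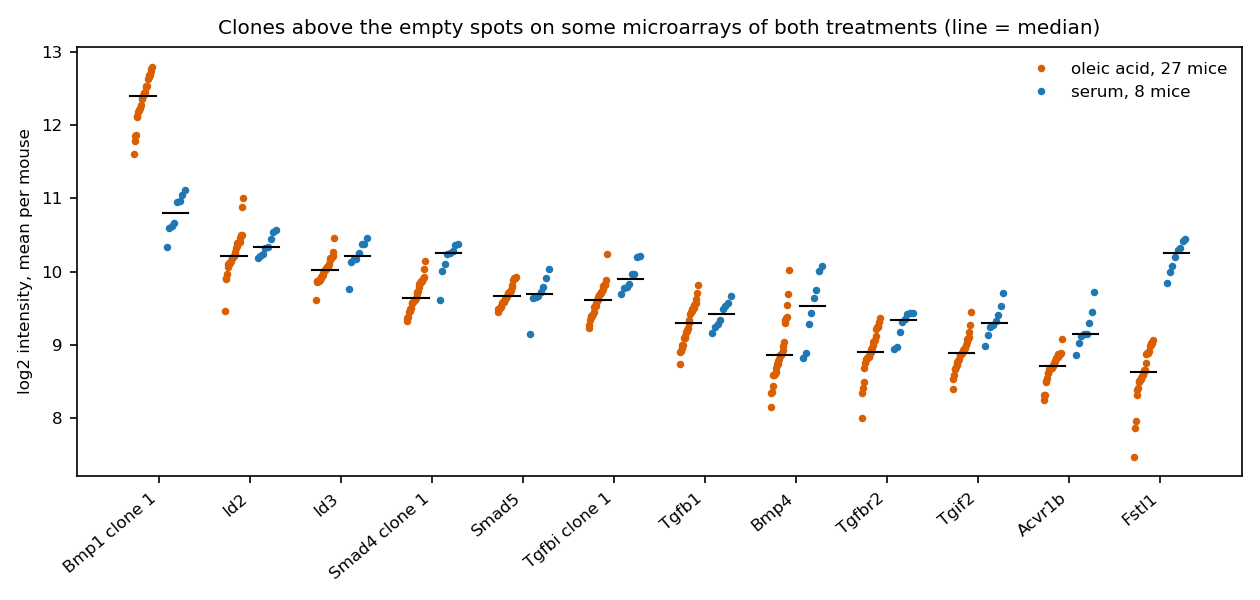
log2 intensity in each of the 27 OA mice (orange, those at 4 hours included) and 8 serum mice (blue) for the 12 members above the empty spots on some microarrays of both treatments, with the median as a line. Bmp1 clone 1 and Fstl1 separate without overlap and in opposite directions, while the other 10 overlap.

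Among the members seen on no microarray above the empty spots, Tgif clone 1 separated without overlap, between 7.74 and 8.39 in OA mice and between 8.41 and 8.56 in serum mice. Smad6 lay between 5.76 and 6.68 in OA mice (median 6.24) and 4.64, 5.45, 4.67, 6.36, 5.31, 4.88, 5.07 and 4.64 in the 8 serum mice (adjusted p = 2.13e-09). Only 1 serum mouse, at 3 hours, reached the OA range of Smad6. Smad7 (adjusted p = 0.00354) and Smad3 (adjusted p = 0.000769) were called lower and Smad1 was not called (adjusted p = 0.0962). These are differences between signals in the range of the empty spots, and no fold is given.

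For 4 genes the 2 clones were called in opposite directions in this contrast. Clone 1 was lower and clone 2 higher in OA for Smad4 (adjusted p of clone 2 0.000727), for Tgfbi (0.00425), for Tgif (3.64e-05 for clone 1 and 0.00134 for clone 2) and for Tgfbrap1, a receptor-associated protein that also binds Smad4 (0.0218 and 0.0343). Both clones of Tgif and of Tgfbrap1 were above the empty spots on no microarray of either treatment. Smad4 clone 2 was above them on 2 of 50 OA microarrays and Tgfbi clone 2 on 32, and neither on any serum microarray. No gene thus had both of its opposed clones measured in both treatments, and these calls do not show whether clones of a gene agreed. The call of Tgfbrap1 clone 2 was lost without the serum mouse at 24 hours (0.25, adjusted p = 0.467), without that at 1.5 hours (adjusted p = 0.118) and without 1 each at 1 and 3 hours (0.0558 and 0.155), and that of Tgfbrap1 clone 1 without the same mouse at 3 hours (0.0735).

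The remaining called members were signals under the percentile. Smurf1 (adjusted p = 0.0162), Tgfbr3 clone 1, a coreceptor (0.000332), Acvr2b (0.00670) and Skiv2l (0.0374) were lower in OA, and Gdf9 (0.00231), Gdf3 (0.0475) and Bmp2k clone 1 (0.0392) higher. With 1 of the 35 mice left out in turn, Gdf3 was called in only 10 fits (highest adjusted p of 0.145, without the serum mouse at 24 hours), Bmp2k clone 1 in 28 (0.160, without the same mouse), Skiv2l in 29 (0.125, the same) and Smurf1 in 34 (0.0575, the same). Whether OA minus serum differed between the 5 time points was tested as an interaction. It passed in 8 of all clones and in none of the members by limma, where the lowest unadjusted p of the 39 members was 0.00530, for Smad6.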

How the data were processed

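Lung RNA of OA and serum mice was hybridised as 33P-labelled cDNA on nylon microarrays of 9984 spots. The authors deposited, for each microarray, linear spot intensities quantified from the image, and a series table of log2 values, quantile normalised by them. Spots without a gene name and control spots were left out, leaving 7625 clones, and replicate microarrays were averaged per mouse. The time and stage comparisons used the deposited log2 values of 50 OA microarrays, and the OA and serum comparison used the deposited intensities (constant diameter, image signal) of all microarrays, floored at 1, on the log2 scale and quantile normalised here. One further OA microarray, whose mouse the labels do not settle, was added only as an alternative, and 1 microarray of mouse P7L3 carries labels of both 3 and 1.5 hours and was taken as 3 hours. Depth has no count here, so precision rests on the number of mice and microarrays.

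Models were fitted over all clones with limma 3.58.1 in R 4.3.3 (moderated F over 6 time points, contrasts between stages, mean OA minus serum over 5 time points), with Benjamini-Hochberg adjustment over all 7625 clones at 5%. The fits were tested on simulated data. Named are members above the 95th percentile of the empty spots, members called in any comparison, all Smad clones, and the 8 listed pathway clones above the empty spots with the smallest adjusted p over time. Other choices were tried as alternatives: normalisation, signal column, serum subtraction, lot as a block, mouse as a random block, filter, variance prior and each mouse left out. For serum subtraction, the last hour of the intermediate stage had no serum mice and so no serum mean of its own. The members and gene lists were chosen with earlier results of these data known. The labels of the OA microarrays name separate mice. The number of serum mice was inferred from the paper's design (8 mice on 9 microarrays, the 2 at 1.5 hours taken as 1 mouse). Taking those 2 microarrays as 2 mice called 25 members and 4853 of all clones between OA and serum. The p-values measure the spread between mice so assigned. In the OA and serum comparison that spread came mostly from the OA mice. Serum had 1 or 2 mice per time point, and a time point with 1 serum mouse adds no spread.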

Additional observations from a re-analysis of the deposited data

Results flagged for a closer look

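In 8 of the 120 time point groups of 4 to 7 OA mice examined over the named members (6.67%, where chance flags about 1 group in 20), 1 mouse stood apart from the others by Dixon's criterion. At 3 hours Id2 was 9.57 in mouse P3L1, against 10.16 in the next mouse, Bmp4 was 10.13 in P8L3 against 8.97, and Tgfbrap1 clone 2 was 5.88 in P16L2 against 7.47. At 1.5 hours Smad4 clone 2 was 9.65 and Gdf3 6.22 in P7L2, against 8.48 and 7.50 in the nearest mouse. Also at 1.5 hours Smurf1 was 8.97 in P8L2 against 8.19, and Fstl1 was 8.98 in P6L2 against 8.65. At 1 hour Smad7 was 6.11 in P2L2 against 5.56. Id2 was the only one of these clones above the empty spots.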

How the results depend on the processing

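In the OA mice the members called between stages were Skil, Tgif2 and Acvr2b also with intensities quantile normalised here, with median centring and with an intensity trend in the variance prior. With lot as a block, 1 member, Skiv2l, was called over time (185 of all clones) and 0 between any stages (86), 0 in late minus intermediate (39) and 0 in late minus early (0). Within lots, 0 members were called between stages (107 of all clones) and 0 in late minus intermediate in lot 1 (42). With the serum mean subtracted, which adds the same serum values to all mice of a time point, 22 members were called over time (4264 of all clones), 20 between stages, 15 in intermediate minus early, 8 in late minus intermediate and 9 in late minus early, and Smad5 turned to -0.42 in late minus early (adjusted p = 0.0219), while Skil and Acvr2b were no longer called there. With microarrays in the fit and the mouse as a random block, 5 members were called between stages (873 of all clones) and 2 (Skiv2l and Id2) in intermediate minus early (379). Adding the unresolved microarray called 1 (Skiv2l) in intermediate minus early (342 of all clones). Leaving out the microarray with conflicting labels called 1 over time (Smad7, with 148 of all clones) and 2 in late minus intermediate (Skil and Smurf2, with 237). Testing only the 2467 clones above the empty spots called Skil alone, 1 over time (99 of these clones), 1 between stages (340) and 1 in late minus early (192). Leaving out each OA mouse gave 0 to 1 members over time (89 to 299 of all clones), 1 to 5 between stages (291 to 926) and 0 to 2 in intermediate minus early (109 to 451). It gave 0 to 2 in late minus intermediate (142 to 284, with 0 members without P8L1) and 1 to 3 in late minus early (19 to 509). No paired analysis was possible because mice of different time points share no replicate number that pairs them.

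For OA against serum, leaving out each mouse gave 21 to 26 members (4510 to 4800 of all clones), 7 to 11 higher and 13 to 16 lower. With the spot diameter calculated, 5 members were called (2 higher, 3 lower, and 1540 of all clones), and Skil (-0.067), Gdf3 (-0.048) and Tgif clone 1 (0.33) turned without passing. With the fitted signal, 20 were called (4118 of all clones), 10 higher and 10 lower. With only the 2467 clones above the empty spots, 5 were called (1439 of these clones), 3 higher and 2 lower. Fewer members were tested, and the filter used the OA mice alone, so clones could enter through being high in OA. Of the 3 higher members, Skil and Tgfbi clone 2 were above the empty spots on no serum microarray. Of all clones so filtered, 940 were higher and 499 lower, against 614 and 910 of the 2632 clones seen in both treatments. Chosen after seeing the data, OA mice within the brightness range of the serum mice called 18 members (3892 of all clones). That range held 2, 4, 4, 2 and 0 OA mice at 1, 1.5, 3, 18 and 24 hours, so 24 hours dropped out of the contrast. The 3 time points with 2 serum mice, also chosen after seeing the data, called 20 (4366 of all clones), with Tgfbrap1 clone 2 turned to -0.063. The cause of these differences was not tested otherwise. Signal over the empty spots was the limit for 30 of the 39 members.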
